A study of Mus musculus with 3 samples.

Results

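Collagen chain genes were taken as every feature whose symbol consists of Col, a number, the letter a and a number, which gave 43 of the 53380 features in the matrices. They comprised 11 fibrillar chains, 9 network chains, 9 FACIT chains (fibril-associated collagens, which coat fibrils rather than form them) and 14 others, a mixed group of microfibril, basement membrane zone, transmembrane and anchoring collagens. The level of each chain was followed over the cell classes of a nerve and over 3 libraries.

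Mouse sciatic nerve cells carrying the TdTomato reporter had been sorted and profiled by single-cell RNA sequencing, with 1 library each for intact nerve, for the day 7 bridge and for the day 21 bridge. The days count from the injury, and the bridge is the region sampled there. In all of them the reporter R26-TomatoLSL was under the control of Pdgfrb-cre/ERT2, an inducible recombinase driven by the promoter of a PDGF receptor, so the sort was aimed at cells in which that promoter had been active. Nerves were pooled before dissociation, and the number and age of the animals are not given in the sources used here. Myelin-removal beads were used for intact nerve alone, so this step and the group cannot be told apart. With 1 library per group no test between groups was possible. All intervals below are exact 95% intervals that cover counting error only.

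Fibrillar collagens, chiefly types I, III and V, are spun into the tension-bearing fibres of connective tissue. Network collagens such as type IV form the sheet of basement membranes, FACITs bind to fibril surfaces, type VI assembles into microfibrils beside cells, and types XV and XVIII tether basement membranes to the matrix around them. In a peripheral nerve, fine collagen fibrils fill the endoneurium around the axons, coarse bundles build the outer epineurium, and the perineurial cells that wrap each fascicle are coated by basement membrane.

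Of the cells the authors placed in 6 classes, 1343 intact, 1780 day 7 and 4111 of 4112 day 21 cells were found in the matrices, with medians of 5667, 19316 and 7442 UMIs (unique molecular identifiers, which count captured RNA molecules) per cell. The libraries shared 41 to 58 barcodes per pair, of which at most 2 were annotated in both. Marker lists fit the endoneurial and epineurial names, with 8 of 8 and at least 8 of 9 markers highest in their own class in each library. The perineurial name was weaker at day 7, although 7 of its 8 markers were highest there. Their summed level was 758 UMIs per 1000000 (CPM) at day 7, against 5562 CPM in the intact class. Endoneurial markers summed to 4147 CPM in the same day 7 cells, against 2549 CPM in the intact class and 1372 CPM in the day 21 class. The intact perineurial class of 116 cells also held 1954 CPM of vascular smooth muscle markers, with Cnn1 and Des at 0, against 238 CPM in the day 7 class and 131 CPM in the day 21 class. The part of these admixtures in the results below was tested only where a value without the cells is given. The classes were made by the authors from the same cells, so levels by class are descriptions.

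Over all annotated cells, collagen transcripts took a larger share of all RNA in the bridge than in intact nerve. Among the classes, the gap in percentage points was widest in the epineurial class. Collagen UMIs made up 2.26% of all UMIs of annotated cells in intact nerve, 3.85% at day 7 and 3.08% at day 21. In epineurial cells, fibroblasts of the outer sheath, the share was 5.68% at day 7 and 4.82% at day 21, against 2.08% in intact nerve. The endoneurial class, fibroblasts between the axons, ran otherwise, with 2.82% in intact nerve, 1.88% at day 7 and 3.85% at day 21. Perineurial cells held the least, with 0.582% in intact nerve, 1.42% at day 7 and 1.37% at day 21. The 3 classes therefore differed in when the share was lowest, with the intact library lowest in epineurial and perineurial cells and the day 7 library lowest in endoneurial cells.

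**Figure D1:**
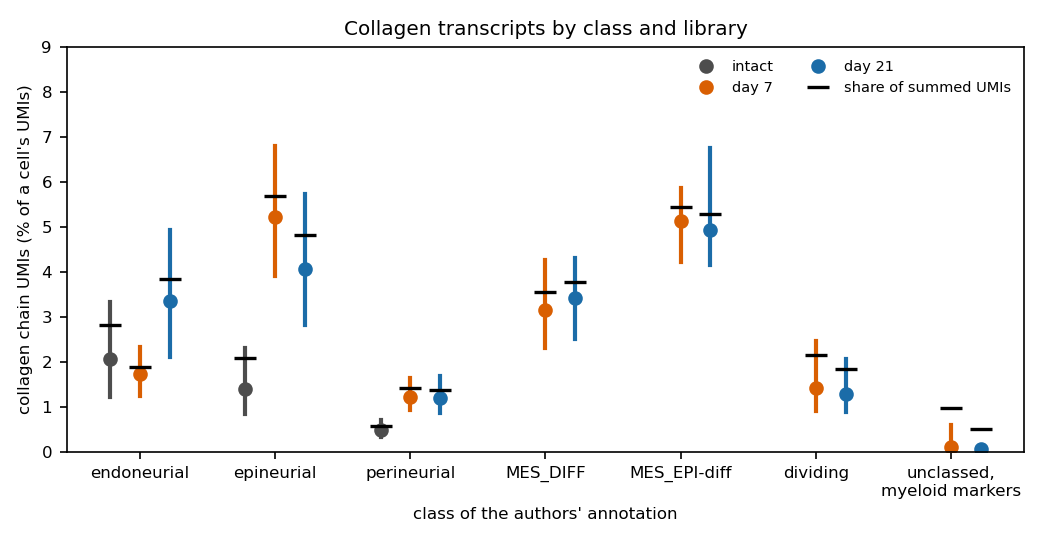
Collagen UMIs as a percentage of a cell's UMIs (vertical axis) in each class and library. Points are medians over cells, bars run over the middle quartiles, and black dashes give the share of the summed UMIs. Epineurial cells of day 7 and day 21 lie above those of intact nerve, while endoneurial cells are lowest at day 7, where the median was 1.72%.

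Cell medians gave the same order within each class and library series, at 1.40%, 5.22% and 4.05% in epineurial cells of intact nerve, day 7 and day 21. Among the classes seen in the bridge alone in numbers above 20 cells, MES_EPI-diff had the highest shares, 5.29% at day 21 and 5.43% at day 7. MES_DIFF, whose name is not explained in the sources used here, had 3.78% at day 21 and 3.55% at day 7, and dividing cells had 1.83% at day 21 and 2.14% at day 7. For comparison, collagen RNA was also measured in barcodes without a class that held at least 5 of 8 myeloid markers, cells that should not make fibrillar collagen. In 274 such barcodes at day 7 the summed share was 0.963% and the cell median 0.109%, and in 189 at day 21 these were 0.512% and 0.0599%. The perineurial cell median of 1.21% at day 7 stood above that myeloid median, but the summed fibrillar level was 11090 CPM in perineurial cells, against 8204.5 CPM in the myeloid barcodes. In intact nerve only 2 barcodes met the myeloid criterion, too few for such a level. At day 7 and at day 21 the summed myeloid share lay above the upper quartile of the shares of single myeloid barcodes. The myeloid levels given below are such sums, so they do not give the level of a typical myeloid barcode. The part of doublets (barcodes that hold several cells) in them was not tested.

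The makeup of the collagen RNA set the perineurial class apart. Fibrillar chains held 55.8% of collagen UMIs in intact perineurial cells, 78.1% at day 7 and 70.7% at day 21. Network chains held 28.0% there in intact nerve, 9.32% at day 7 and 14.1% at day 21, against at most 7.35% in any other class and library shown. Type IV chains alone were 21.7%, 7.41% and 13.2% of the perineurial collagen UMIs in intact nerve, at day 7 and at day 21. In the epineurial class fibrillar chains held 83.5% of collagen UMIs in intact nerve, 89.3% at day 7 and 86.9% at day 21. The chains of types I and III, Col1a1, Col1a2 and Col3a1, together accounted for 76.9% of all collagen UMIs in intact nerve, 79.0% at day 7 and 76.8% at day 21.

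**Figure D2:**
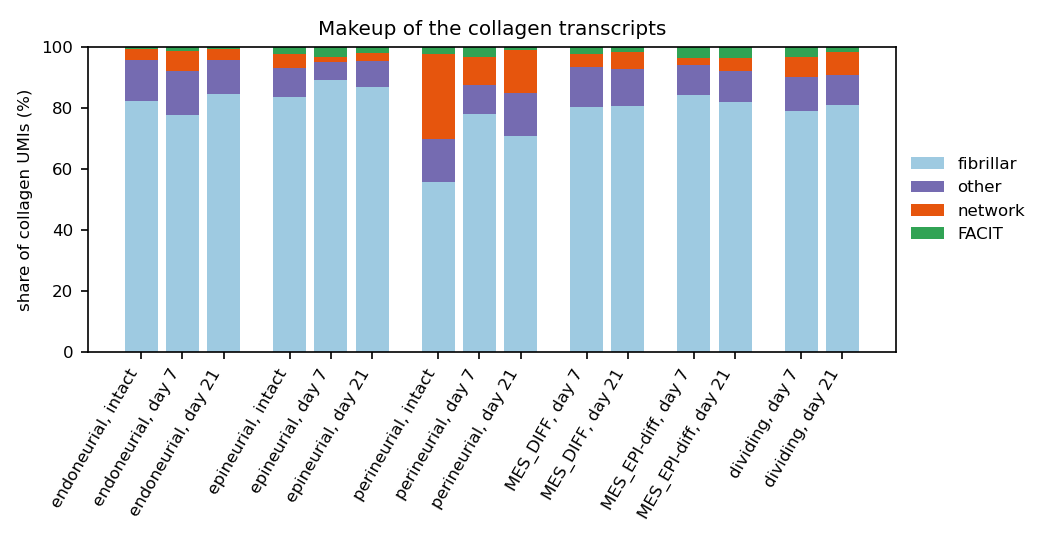
Share of collagen UMIs (%, vertical axis) held by fibrillar, other, network and FACIT chains in each class and library. The network part of the perineurial bar is 9.32% at day 7, against 28.0% in intact nerve, the largest of all bars.

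Counts of chains were read against all features. A chain was measured in a comparison where its mean over both groups was at least 5 CPM, and counted where its ratio passed 2-fold. Over all annotated cells, 28 of the 43 chains were measured between day 7 and intact nerve, 4 of them below 5 CPM in 1 of the groups. Of these, 12 were more than 2-fold higher at day 7 and 6 more than 2-fold lower, where 7.23% of all measured features were higher and 9.33% lower, and the median log2 ratio was 0.56 for the chains and -0.01 for all features. Between day 21 and intact nerve 5 of 28 measured chains were higher, against 4.88% of features, and 4 lower, against 4.78%, with medians of 0.41 and 0.08. At day 21 against day 7 the counts were 4 of 26 higher, against 5.71% of features, and 4 lower, against 4.06%. The comparisons share libraries, so they are not separate evidence, and all-cell values also carry the change in class shares: perineurial cells were 50.3% of annotated cells at day 21 and 8.64% in intact nerve.

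**Figure D3:**
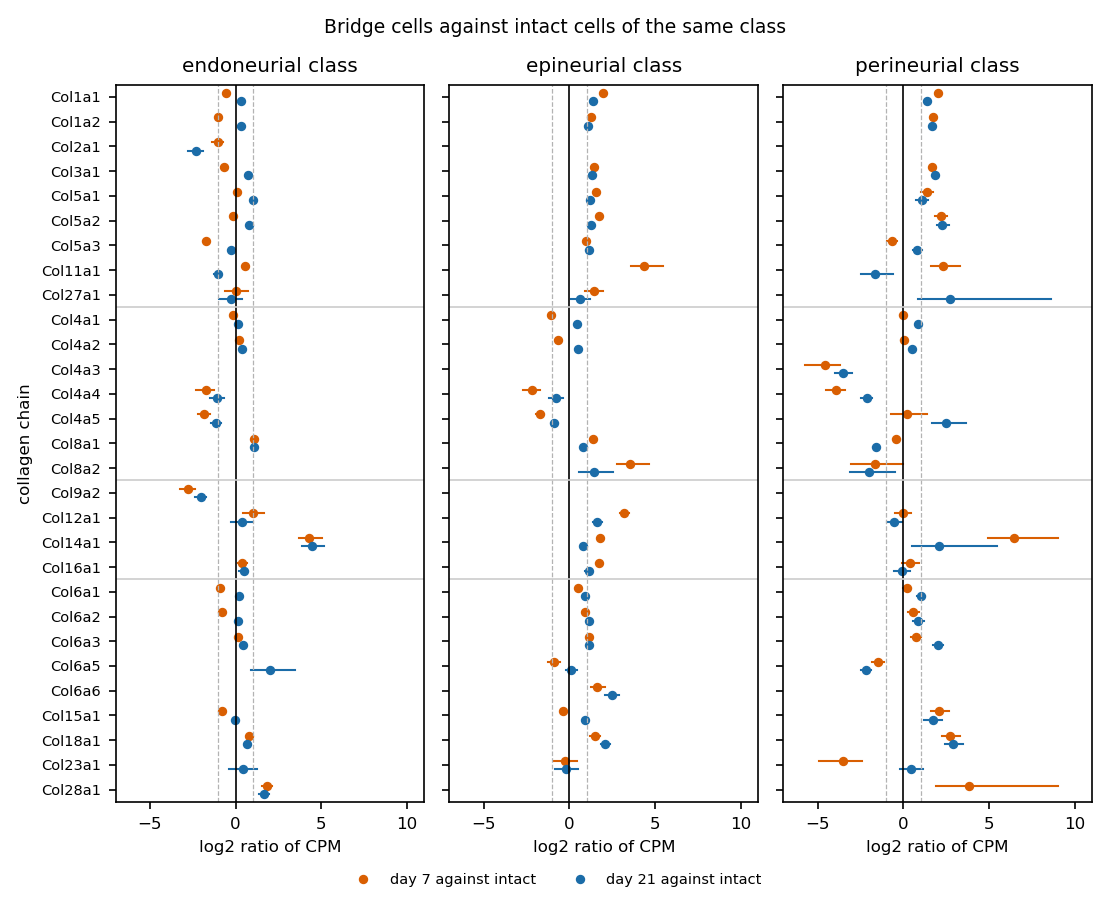
Log2 ratio of CPM (horizontal axis) of each named collagen chain (vertical axis) in day 7 (orange) and day 21 (blue) cells against intact cells of the same class, with counting intervals as bars and dashed lines at 2-fold; chains not measured in a class are not drawn. Grey lines separate fibrillar, network, FACIT and other chains. Epineurial fibrillar and FACIT chains lie to the right of 0, and perineurial Col4a3 and Col4a4 far to its left.

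Of the classes set against intact nerve, the epineurial class held the most chains more than 2-fold higher on both days. Between day 7 and intact epineurial cells, 15 of 25 measured chains were more than 2-fold higher, against 5.49% of all features, and 3 lower, against 8.28%, with medians of 1.40 and -0.06. At day 21, against the same intact cells, 13 of 24 were higher, against 3.57%, and 0 lower, against 3.76%, with medians of 1.11 and -0.01. Of the measured chains, 3 at day 7 and 1 at day 21 had 1 group below 5 CPM. In both comparisons the higher chains included the main fibrillar chains, and 7 of 8 measured fibrillar chains were higher at day 7 and 6 of 7 at day 21.

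Among the fibrillar chains, Col1a1, the major chain of type I collagen, had 4656 CPM in intact epineurial cells, 17920 CPM at day 7 and 12138 CPM at day 21. Both bridge libraries were above intact nerve, by 3.85-fold at day 7 (3.79 to 3.91) and 2.61-fold at day 21 (2.57 to 2.65). Col1a2, its partner chain, had 5745 CPM in intact epineurial cells, 13562 CPM at day 7 and 12346 CPM at day 21. Its ratios to intact cells, 2.36-fold at day 7 and 2.15-fold at day 21, were smaller than those of Col1a1. Col3a1, which forms the homotrimers of type III collagen in thinner fibrils, had 5911 CPM in intact epineurial cells, 16019 CPM at day 7 and 14932 CPM at day 21. The day 7 to intact ratio of Col3a1 was 2.71-fold (2.67 to 2.75) and the day 21 ratio 2.53-fold. MES_EPI-diff cells had 17057 CPM of Col1a1 at day 21 and 18538 CPM at day 7.

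The start region of Col1a2 is printed because type I collagen is the most heavily sampled chain pair here and its start carries 2 of the boxes classically described in collagen promoters. It spans 250 bases before to 50 bases after the RefSeq start, on GRCm38.p6 at chr6:4505368-4505667, plus strand. Capitals mark CCAAT boxes (CCAAT, or ATTGG on the other strand) and GC boxes (GGGCGG, or CCGCCC on the other strand). The ATTGG match begins at the RefSeq start itself. GENCODE M21 places the start of the gene before this window, at base 4504814.
Col1a2: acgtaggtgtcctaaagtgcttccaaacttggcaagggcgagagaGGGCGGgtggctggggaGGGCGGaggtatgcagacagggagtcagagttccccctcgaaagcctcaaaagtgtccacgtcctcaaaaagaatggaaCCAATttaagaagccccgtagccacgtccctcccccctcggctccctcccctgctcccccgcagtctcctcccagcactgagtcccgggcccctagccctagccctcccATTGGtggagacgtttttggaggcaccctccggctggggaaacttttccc
Of the 43 chains, 35 had such a window in the RefSeq table, 38 windows in all. A CCAAT box was found in 13 of the 38 windows (34.2%), against 37.4% of all 32851 windows of the same length, and a GC box in 23 (60.5%), against 35.7%. A TATA box (TATAAA, or TTTATA on the other strand) was found in 5 windows (13.2%), against 13.6% of all windows. The marked matches do not overlap in the printed windows, and a match is a stretch of letters and not a shown binding site.

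The quantitatively minor type V chains, which nucleate fibrils of types I and III and limit their width, moved with them in epineurial cells. Col5a1 had 384 CPM in intact epineurial cells, 1123 CPM at day 7 and 881 CPM at day 21. Col5a2 had 538 CPM in intact epineurial cells, 1761 CPM at day 7 and 1288 CPM at day 21. The bridge was above intact nerve for both chains, by 2.92-fold for Col5a1 and 3.28-fold for Col5a2 at day 7. Col5a3, the chain of a less common type V trimer, was 1.95-fold higher at day 7, and 2.19-fold higher at day 21, a value that fell inside 2-fold after thinning cells to 2000 UMIs, at a log2 ratio of 0.94. Between day 21 and day 7, 4 of 25 measured chains were higher in epineurial cells, against 3.72% of features, and 4 lower, against 2.13%, and the 4 lower chains were Col11a1, Col8a2, Col12a1 and Col14a1, with no chain of types I, III or V among them.

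In endoneurial cells the main fibrillar chains took a smaller share of UMIs at day 7 than in intact nerve, and a larger one at day 21. Median depths were 4779 UMIs per cell in intact nerve, 15143 at day 7 and 8649 at day 21, so these shares do not give amounts per cell. Between day 7 and intact endoneurial cells, 4 of 24 measured chains were more than 2-fold higher, against 8.25% of features, and 6 lower, against 9.64%, with medians of -0.13 and 0.00. At day 21, 5 of 26 were higher, against 4.21%, and 5 lower, against 5.17%, with medians of 0.35 and 0.04. Only 1 of these measured chains, at day 21, had a group below 5 CPM. Col1a1 had 8335 CPM in intact endoneurial cells, 5684 CPM at day 7 and 10527 CPM at day 21. Col1a2 had 6279 CPM in intact endoneurial cells, 3084 CPM at day 7 and 7908 CPM at day 21, and Col3a1 had 7045, 4454 and 11851 CPM in the same 3 libraries. The day 7 library was the lowest for each of these chains and the day 21 library the highest. Between day 21 and day 7, 4 of 25 measured chains were higher in endoneurial cells, against 4.38% of features, namely Col6a1, Col1a2, Col3a1 and Col5a3, and 2 were lower, against 4.29%, namely Col11a1 and Col2a1. Col5a3 had 307 CPM in intact endoneurial cells, 92.1 CPM at day 7 and 252 CPM at day 21, and was 3.33-fold lower at day 7 than in intact nerve (2.95 to 3.77).

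Endoneurial cells also held RNA of chains best known from cartilage, where collagen II fibrils are decorated by collagen IX and built around collagen XI. Col2a1, the chain of type II collagen, had 65.4 CPM in intact endoneurial cells, 31.6 CPM at day 7 and 12.9 CPM at day 21. In the intact epineurial class it had 0 UMIs, which allows up to 0.760 CPM, and no other class of at least 100 cells exceeded 3.20 CPM in any library. Col2a1 was 5.08-fold lower at day 21 than in intact endoneurial cells (3.78 to 6.94). The 2.07-fold lower value at day 7 fell inside 2-fold when each cell was given the same weight, at a log2 ratio of -0.41. Its RNA was found in 105 of 663 intact endoneurial cells, and the 5 cells with most UMIs held 26.0% of them. Col9a2, a chain of the FACIT collagen IX, had 96.0 CPM in intact endoneurial cells, 13.6 CPM at day 7 and 23.7 CPM at day 21. It was 7.03-fold lower at day 7 than in intact nerve (5.22 to 9.64) and 4.05-fold lower at day 21. Its partner chains were nearly undetected, with 11 UMIs of Col9a1 and 72 of Col9a3 in all 3 libraries, against 572 of Col9a2.

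Col11a1, the major chain of type XI collagen, followed another course. It had 181 CPM in intact endoneurial cells, 265 CPM at day 7 and 87.6 CPM at day 21. In epineurial cells it had 2.79 CPM in intact nerve, 59.7 CPM at day 7 and 5.73 CPM at day 21. The day 7 library was thus the highest in both classes, and the epineurial ratio of day 7 to intact cells was 21.4-fold (11.9 to 43.1), resting on 11 UMIs in intact nerve. The day 7 myeloid barcodes held 37.3 CPM of Col11a1, with 88.5% of it in 5 barcodes. Perineurial cells had 17.9 CPM in intact nerve, 93.6 CPM at day 7 and 5.91 CPM at day 21. There the day 21 value was 3.04-fold lower than the intact one (1.55 to 5.49), but from 13 intact UMIs, and the direction turned when every cell was thinned to 2000 UMIs, at a log2 ratio of 1.20. Col27a1, a fibrillar chain of cartilage and developing tissue, had 9.37 CPM in intact epineurial cells, 25.2 CPM at day 7 and 14.4 CPM at day 21. It stayed below 40 CPM in each class of at least 100 cells, with its highest level, 39.8 CPM, in dividing cells at day 21.

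**Figure D4:**
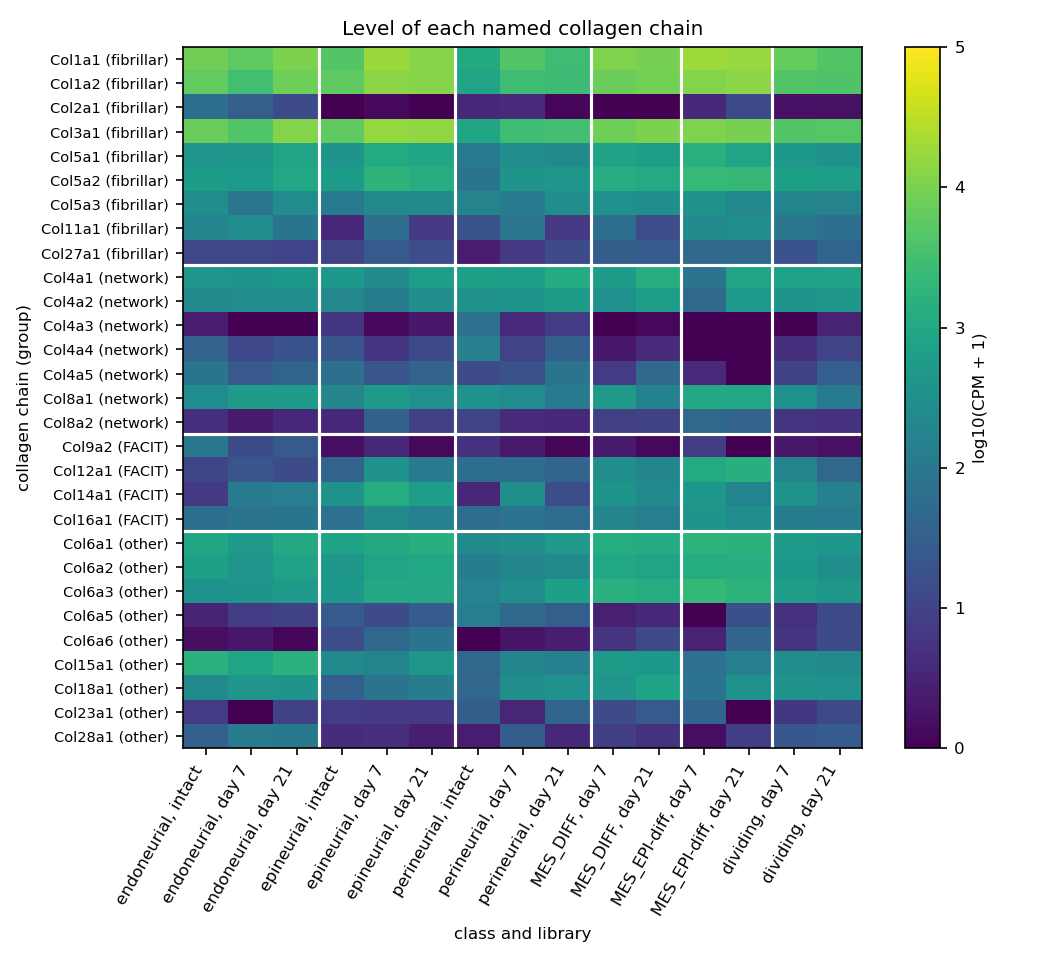
Levels of the 29 named collagen chains (rows) in each class and library (columns), as log10 of CPM plus 1 by colour. Col2a1 and Col9a2 are brightest in endoneurial columns, Col14a1 and Col6a6 in epineurial columns, and Col4a3 in the intact perineurial column, where it reached 73.1 CPM.

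In the perineurial class most fibrillar chains were higher in the bridge, while network chains differed in both directions. Between day 7 and intact perineurial cells 10 of 25 measured chains were more than 2-fold higher, against 10.7% of features, and 5 lower, against 18.7%, with medians of 0.37 and -0.16. At day 21, 12 of 25 were higher, against 6.87%, and 6 lower, against 10.8%, with medians of 0.86 and -0.08. Of the measured chains, 5 at day 7 and 3 at day 21 had 1 group below 5 CPM, among them Col4a3 at day 7. Of the fibrillar chains, 6 of 7 measured were higher at day 7 and 6 of 8 at day 21, while of the 7 measured network chains 0 were higher at day 7 and 1 at day 21, and 3 were lower at day 7 and 4 at day 21. The summed network level was 1630 CPM in intact perineurial cells, 1323 CPM at day 7 and 1941 CPM at day 21. Between day 21 and day 7, 6 of 24 chains were higher, against 7.21%, and 4 lower, against 4.98%.

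Col1a1 had 1093 CPM in intact perineurial cells, 4494 CPM at day 7 and 2824 CPM at day 21. Col3a1 had 910 CPM in intact perineurial cells, 2862 CPM at day 7 and 3246 CPM at day 21. Both bridge libraries were above intact nerve, with Col1a1 4.11-fold higher at day 7 and 2.58-fold higher at day 21. The summed level in the myeloid barcodes was 3663 CPM of Col1a1 at day 7 and 1211 CPM at day 21. Both sums were below the perineurial level of the same library, but they do not give the level of a typical myeloid barcode. The part of free or adhering RNA in the ratios was not tested.

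The type IV chains Col4a3 and Col4a4, which join with Col4a5 in the specialised basement membranes of kidney, lung and ear, were lower in the perineurial class of the bridge on both days. Col4a3 had 73.1 CPM in intact perineurial cells, 2.93 CPM at day 7 and 6.43 CPM at day 21. Col4a4 had 148 CPM in intact perineurial cells, 9.60 CPM at day 7 and 33.4 CPM at day 21. For both chains intact nerve was highest and day 7 lowest. Against intact cells Col4a3 was 24.9-fold lower at day 7 (12.9 to 52.9) and 11.4-fold lower at day 21 (7.91 to 16.2), and Col4a4 was 15.4-fold lower at day 7 (10.4 to 23.1) and 4.41-fold lower at day 21 (3.54 to 5.46). Col4a3 RNA was seen in 35 of 116 intact perineurial cells, 7 of 241 at day 7 and 75 of 2069 at day 21. In day 7 and intact cells that held UMIs of at least 3 perineurial markers, a selection made after seeing the data, the log2 ratio of Col4a3 was -3.86, against -4.59 in the whole class. These cells still differed in perineurial markers, which summed to 1102 CPM at day 7 and 5939 CPM in intact nerve. Col4a4 was also lower outside the perineurium, 3.36-fold at day 7 in endoneurial and 4.59-fold in epineurial cells.

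These chains sit head to head on chromosome 1, where GENCODE M21 places the start of Col4a3 only 71 bases from that of Col4a4. The Col4a4 window is printed because it spans the starts of both chains that were lower together. It runs on GRCm38.p6 over chr1:82586800-82587099, minus strand, from RefSeq, and holds none of the CCAAT, GC or TATA boxes named above, so no letters are in capitals.
Col4a4: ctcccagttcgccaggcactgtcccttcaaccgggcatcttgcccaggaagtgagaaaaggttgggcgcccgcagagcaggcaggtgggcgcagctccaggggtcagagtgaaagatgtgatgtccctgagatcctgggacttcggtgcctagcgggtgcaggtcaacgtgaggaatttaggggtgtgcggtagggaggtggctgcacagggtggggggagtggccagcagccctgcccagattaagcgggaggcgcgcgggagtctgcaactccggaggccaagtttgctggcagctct
The start region of the pair Col4a1 and Col4a2 is printed beside it, since these chains of the common type IV trimer are also encoded head to head, with starts that overlap by 22 bases on chromosome 8. The Col4a1 window lies at chr8:11312777-11313076, minus strand, and capitals mark a CCAAT box and a GC box, both on the other strand.
Col4a1: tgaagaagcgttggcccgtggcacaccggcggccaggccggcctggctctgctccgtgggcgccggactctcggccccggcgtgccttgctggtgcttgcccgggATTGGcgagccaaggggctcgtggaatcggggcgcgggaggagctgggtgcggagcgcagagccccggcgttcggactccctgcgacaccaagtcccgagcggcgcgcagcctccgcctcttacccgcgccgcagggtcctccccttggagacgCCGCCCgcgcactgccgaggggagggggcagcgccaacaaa
Whether the counting used strand is not given in the sources used here, so reads from the overlapping ends of Col4a1 and Col4a2 could not be told apart if it did not.

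Col4a1 and Col4a2 behaved otherwise than Col4a3 and Col4a4. Col4a1 had 655 CPM in intact perineurial cells, 642 CPM at day 7 and 1173 CPM at day 21, and Col4a2 had 374, 381 and 525 CPM in the same 3 libraries. The day 7 and intact levels differed by less than their counting interval for Col4a1 (1.02-fold lower, interval 0.922 to 1.12), and day 21 was 1.79-fold higher than intact. In epineurial cells Col4a1 was 2.10-fold lower at day 7 than in intact nerve, at 224 CPM in day 7 cells against 471 CPM in intact cells, and it reached 643 CPM at day 21. MES_DIFF cells had the highest level of any class at day 21, 1329 CPM, 2.30-fold above their day 7 level. Col4a5, the remaining chain of the Col4a3 and Col4a4 trimer, had 13.8 CPM in intact perineurial cells, 16.5 CPM at day 7 and 81.5 CPM at day 21. Against intact nerve it was thus higher at day 21, where its partners were lower, although Col4a3, Col4a4 and Col4a5 were each higher at day 21 than at day 7. The day 21 ratio of Col4a5 to intact perineurial cells was 5.91-fold (3.20 to 12.4), from 10 intact UMIs. In endoneurial cells Col4a5 had 85.3 CPM in intact nerve, 23.8 CPM at day 7 and 39.1 CPM at day 21.

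Type VIII chains form hexagonal lattices in vessel walls and in the eye. Col8a1 had 264 CPM in intact endoneurial cells, 550 CPM at day 7 and 562 CPM at day 21, and 192, 505 and 327 CPM in epineurial cells of intact nerve, day 7 and day 21. It ran the other way in perineurial cells, with 357 CPM in intact nerve, 267 CPM at day 7 and 118 CPM at day 21. The day 21 perineurial value was 3.03-fold lower than the intact one (2.64 to 3.45). Col8a2 had 2.79 CPM in intact epineurial cells, 33.8 CPM at day 7 and 7.67 CPM at day 21, so that day 7 stood out, 12.1-fold above intact nerve from 11 intact UMIs (6.72 to 24.5).

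Among the FACIT chains, Col12a1, a chain that bridges fibrils in tendon and healing tissue, was higher in the bridge than in intact nerve over all annotated cells and in epineurial cells, but not in perineurial cells. Over all annotated cells it had 29.0 CPM in intact nerve, 295 CPM at day 7 and 90.3 CPM at day 21. With class shares held equal, the all-cell ratio of day 21 to intact nerve fell inside 2-fold, at a log2 ratio of 0.90. Epineurial cells had 38.5 CPM in intact nerve, 355 CPM at day 7 and 119 CPM at day 21. The day 7 to intact ratio in epineurial cells was 9.22-fold (7.85 to 10.9), and the day 21 ratio was 3.09-fold. MES_EPI-diff cells exceeded these, with 1367 CPM at day 21 and 1159 CPM at day 7, while endoneurial cells stayed at 10.1 CPM in intact nerve, 20.9 CPM at day 7 and 13.1 CPM at day 21. Perineurial cells had 62.0 CPM in intact nerve, the highest intact level of the classes shown, 60.5 CPM at day 7 and 42.6 CPM at day 21. The endoneurial day 7 level was below the 106 CPM of the myeloid barcodes of that library, and the part of free RNA in it was not tested.

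Col14a1, a FACIT of dermal and tendon fibrils, was an epineurial chain in intact nerve and reached other classes in the bridge. Epineurial cells had 363 CPM in intact nerve, 1262 CPM at day 7 and 621 CPM at day 21. The day 7 epineurial level was 3.47-fold above the intact one (3.29 to 3.67) and came from 673 of 676 cells. Endoneurial cells had 6.05 CPM in intact nerve, 122 CPM at day 7 and 135 CPM at day 21, and perineurial cells had 2.76, 302 and 14.6 CPM. In the myeloid barcodes Col14a1 was at 134 CPM at day 7 and 60.8 CPM at day 21. These were above the endoneurial level at day 7 and the perineurial level at day 21, and the part of free RNA was not tested. At day 7, 125 of 255 endoneurial cells had a UMI, against 90 of 274 myeloid barcodes, with median depths of 15143 and 6846.5 UMIs. At day 21, 211 of 487 endoneurial cells had a UMI, against 35 of 189 myeloid barcodes, with median depths of 8649 and 6308 UMIs. In perineurial cells of day 7, 167 of 241 had a UMI, against 90 of 274 myeloid barcodes, with median depths of 15443 and 6846.5 UMIs, and the ratio to intact nerve, 110-fold, had an interval of 30.3 to 906 because intact cells held 2 UMIs. Col16a1, a FACIT found in skin and cartilage, was 3.34-fold higher in epineurial cells at day 7 than in intact nerve and 2.16-fold higher at day 21, with 71.4, 239 and 155 CPM in intact nerve, at day 7 and at day 21. The day 21 ratio of Col16a1 fell inside 2-fold after thinning, at a log2 ratio of 0.58.

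Type VI collagen, whose core trimer is made of Col6a1, Col6a2 and Col6a3, was higher in bridge epineurial cells, with Col6a3 past 2-fold on both days. Col6a1 had 753 CPM in intact epineurial cells, 1068 CPM at day 7 and 1390 CPM at day 21, and Col6a2 had 446, 848 and 982 CPM in these libraries. The bridge was above intact nerve for both chains, although Col6a1 did not reach 2-fold. Col6a3 had 472 CPM in intact epineurial cells, 1057 CPM at day 7 and 1054 CPM at day 21. In perineurial cells it had 165 CPM in intact nerve, 277 CPM at day 7 and 666 CPM at day 21. The day 21 perineurial level was 4.03-fold above the intact one (3.36 to 4.86), while Col6a1 was 2.04-fold and Col6a2 1.83-fold higher. The Col6a1 ratio fell inside 2-fold when each cell was given the same weight, at a log2 ratio of 0.93. The day 7 perineurial level of Col6a3 was close to the 262 CPM of the myeloid barcodes.

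Col6a5 and Col6a6 are alternative type VI chains that can take the place of Col6a3. Col6a5 had 145 CPM in intact perineurial cells, 52.5 CPM at day 7 and 31.9 CPM at day 21. Intact nerve was highest, but 5 of the 116 intact cells held 70.5% of its UMIs. The 2.76-fold lower value at day 7 fell inside 2-fold, to a log2 ratio of -0.75, once cells rich in smooth muscle markers were left out, a selection made after seeing the data, and the 4.55-fold lower value at day 21 gave -1.41 on the same cells. Col6a6 was an epineurial chain, with 14.4 CPM in intact nerve, 44.8 CPM at day 7 and 81.0 CPM at day 21. It was 5.61-fold higher in epineurial cells at day 21 than in intact nerve (4.28 to 7.47), and seen in 306 of 1027 cells at day 21 against 35 of 540 in intact nerve, at median depths of 9666 and 6936.5 UMIs.

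The basement membrane zone collagens XV and XVIII, which can both release anti-angiogenic fragments, were both highest in the endoneurial class in intact nerve. At day 7 Col15a1 was again highest there, while Col18a1 was nearly equal in endoneurial and MES_DIFF cells, at 404.7 and 404.3 CPM. Col15a1 had 1565 CPM in intact endoneurial cells, 896 CPM at day 7 and 1541 CPM at day 21, and 234, 177 and 435 CPM in epineurial cells of the same libraries. In endoneurial cells day 21 and intact nerve differed by 1.02-fold, within the counting interval (0.980 to 1.05), and day 7 was 1.75-fold lower than intact nerve. Col18a1 had 237 CPM in intact endoneurial cells, 405 CPM at day 7 and 381 CPM at day 21, and was highest in MES_DIFF cells at day 21, at 780 CPM. It had 44.1 CPM in intact perineurial cells, 293 CPM at day 7 and 330 CPM at day 21, which made it 6.65-fold higher at day 7 (4.68 to 9.77) and 7.48-fold higher at day 21 (5.29 to 10.9). The myeloid barcodes held 88.3 CPM of Col18a1 at day 7 and 73.9 CPM at day 21. In epineurial cells Col18a1 had 29.6 CPM in intact nerve, 82.2 CPM at day 7 and 126 CPM at day 21, of which the day 7 level did not exceed the myeloid one.

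Col23a1, a transmembrane collagen, was highest in the perineurial class in intact nerve and at day 21. It had 29.0 CPM in intact perineurial cells, 2.40 CPM at day 7 and 39.6 CPM at day 21. Day 7 stood apart from both other libraries, 12.1-fold below intact nerve (5.30 to 29.9), and day 21 was 16.5-fold above day 7 (8.64 to 36.3). Perineurial markers summed to 5562 CPM in intact perineurial cells, 758 CPM at day 7 and 2864 CPM at day 21, also lowest at day 7, and their part in this was not tested. Col28a1, a chain first described around peripheral nerve cells, had 33.4 CPM in intact endoneurial cells, 119 CPM at day 7 and 105 CPM at day 21. Both bridge libraries were above intact nerve, by 3.56-fold at day 7 (2.89 to 4.40) and 3.14-fold at day 21 (2.56 to 3.89). Perineurial cells had 1.38 CPM of it in intact nerve, 29.1 CPM at day 7 and 2.62 CPM at day 21.

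In the classes of the bridge, day 21 was set against day 7. In MES_DIFF cells 3 of 25 measured chains were more than 2-fold higher at day 21, against 9.05% of features, and 2 lower, against 4.92%, and the higher ones were Col4a1, Col4a5 and Col6a6. Col4a5 had 49.3 CPM in day 21 MES_DIFF cells, against 6.50 CPM in day 7 MES_DIFF cells, a 7.60-fold ratio (5.57 to 10.5). In the same class perineurial markers summed to 1022 CPM at day 21 and 222 CPM at day 7, and epineurial markers to 1186 CPM at day 21 and 229 CPM at day 7, and their part in these ratios was not tested. In dividing cells 7 of 26 were higher at day 21, against 7.76%, and 3 lower, against 3.85%. Schwann cell markers summed to 1604 CPM in dividing cells at day 21 and 319 CPM at day 7, and vascular smooth muscle markers to 281 CPM at day 21 and 1394 CPM at day 7, and their part in this was not tested. Col11a1 was lower at day 21 than at day 7 in endoneurial, epineurial, perineurial and MES_DIFF cells, by 3.03-fold to 15.8-fold, whereas MES_EPI-diff cells had 286 CPM of it at day 21 and 233 CPM at day 7. MES_EPI-diff cells, 22 at day 21 and 94 at day 7, were highest of all classes for 12 of the 29 named chains at day 21 and for 13 at day 7, among them Col5a2, Col6a1, Col6a2, Col6a3, Col12a1 and Col16a1. These counts have no background, because the share of all features highest in MES_EPI-diff cells was not computed. Tenocyte and chondrocyte markers summed to 9905 CPM in these cells at day 21 and 2544 CPM at day 7. Col22a1, a FACIT of tissue junctions that was singled out after its values were seen, had 115 CPM in MES_EPI-diff cells at day 21, against 4.08 CPM at day 7, but rested on 30 UMIs in 6 of 22 cells.

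Ratios between chains of the same trimer showed how far partners moved together. The ratio of Col1a1 to Col1a2 UMIs in epineurial cells was 0.810 in intact nerve, 1.32 at day 7 and 0.983 at day 21. It was highest at day 7 in the 3 classes present in every library, as in endoneurial cells with 1.33 in intact nerve, 1.84 at day 7 and 1.33 at day 21. The ratio of Col6a3 to Col6a1 in perineurial cells was 0.670 in intact nerve, 0.955 at day 7 and 1.33 at day 21, and in endoneurial cells 0.383, 0.769 and 0.464. Col4a1 to Col4a2 stayed between 1.51 and 2.28 over all classes and libraries shown. Col4a3 to Col4a4 was 0.192 in perineurial cells at day 21 (0.151 to 0.243), against 0.495 in intact nerve (0.349 to 0.695). UMIs are not divided by transcript length, so a ratio can be compared across classes and libraries but does not give the stoichiometry of a trimer.

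**Figure D5:**
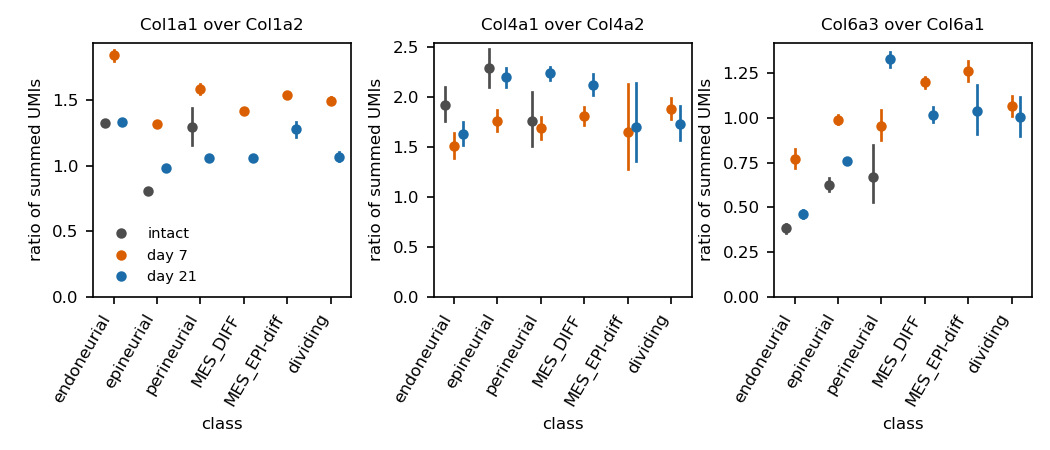
Ratio of summed UMIs (vertical axes) of Col1a1 over Col1a2, Col4a1 over Col4a2 and Col6a3 over Col6a1 by class (horizontal axes) in intact nerve, at day 7 and at day 21, with counting intervals as bars. Col1a1 over Col1a2 is highest at day 7 in each class, at 1.84 in endoneurial cells, and Col6a3 over Col6a1 is highest at day 21 in perineurial cells only, at 1.33.

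Genes that modify, fold, secrete or crosslink collagen were followed as a list of 28. Over all annotated cells, 6 of 24 measured were more than 2-fold higher at day 7 than in intact nerve and 1 was lower, against 7.23% and 9.33% of all measured features, with a median log2 ratio of 0.47 for the list and -0.01 for all features. P4ha3, a prolyl hydroxylase subunit, had 23.7 CPM at day 7, against 2.39 CPM in intact nerve, a 9.93-fold ratio (6.39 to 16.3). Plod2, the lysyl hydroxylase of collagen telopeptides, was 3.48-fold higher at day 7, and P3h1, a prolyl 3-hydroxylase, was 3.20-fold higher. Pcolce2, an enhancer of procollagen processing that is also on the epineurial marker list, had 14.7 CPM at day 7, against 311 CPM in intact nerve, 21.1-fold lower (19.2 to 23.2). At day 21, 1 of 23 was higher, Bmp1, a procollagen C-proteinase, at 2.42-fold, and 1 lower, Pcolce2, close to the 4.88% higher and 4.78% lower of all features. Between day 21 and day 7 the crosslinking oxidase Lox was 4.12-fold lower, P4ha3 4.10-fold lower and Loxl3, another member of that oxidase family, 2.05-fold lower, and the list median was -0.37, against 0.10 for all features. The processing genes were not run with class shares held equal, so the part of class shares in these all-cell ratios was not tested.

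The 14 remaining chains stayed below 20 CPM in every class of at least 100 cells, with highest levels of 0 to 12.1 CPM. They were Col11a2, Col24a1, Col4a6, Col10a1, Col9a1, Col9a3, Col19a1, Col20a1, Col22a1, Col6a4, Col7a1, Col13a1, Col17a1 and Col25a1. Col19a1 had no UMI in any annotated cell, while the highest of the others was Col9a3 in dividing cells at day 21.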

How the data were processed

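Single-cell UMI counts per gene and barcode, 1 matrix for each of the 3 libraries, were used as the authors deposited them, with the authors' deposited cell classes. Per the submitters' processing notes, the tools were Cell Ranger (6.1.2 and 3.0.2) and Seurat (4.0.1), on builds named as mm10 and GRCm38. Which version made which matrix, and the strand setting, are not given in the sources used here. UMIs were summed per class and library and divided by the summed total (CPM). The log2 ratios had 0.5 counts added. Classes of at least 20 cells are shown. A chain was named where it reached 20 CPM in a class of at least 100 cells in 1 library, and up to 3 processing genes per direction by the size of their ratio. A count of 0 was read as allowing up to 3 counts. No cells were removed as doublets. Intervals are exact, at the 95% level (Clopper-Pearson, Poisson or conditional binomial), and cover counting error only. Python 3.11.15, numpy 2.4.6, scipy 1.17.1, pandas 2.3.3 and matplotlib 3.10.9 were used, and the calculations were tested on simulated data. The members, gene lists and alternatives were chosen with earlier results of these data known. Of the symbols of this form, 1 is not reported here. Alternatives changed the weighting of cells, depth, total, scaling, added counts, filter and cells used. The promoter windows are those of RefSeq on GRCm38.p6.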

Additional observations from a re-analysis of the deposited data

How the results depend on the processing

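No paired analysis was possible because each group was 1 library, and leaving out a replicate was not possible for the same reason. Alternatives were run over all annotated cells, and for endoneurial, epineurial and perineurial cells against intact nerve. They were not run for day 21 against day 7 within a class, so those ratios were not checked in this way. Of 119 ratios of named chains past 2-fold in the comparisons covered, 80 stayed past it under every alternative run, the one that asks the whole counting interval to pass included, and 39 did not. In epineurial cells 16 of 18 were kept at day 7 and 10 of 13 at day 21, in perineurial cells 13 of 15 at day 7 and 12 of 18 at day 21, and in endoneurial cells 6 of 10 at day 7 and 4 of 10 at day 21. The direction turned in 1 case, Col11a1 in perineurial cells at day 21 against intact nerve, with a log2 ratio of 1.20 after thinning cells to 2000 UMIs. Depth limits the intact perineurial values, from 116 cells, and those of the 22 MES_EPI-diff cells at day 21. With class shares held equal (1 class mixture), some all-cell calls fell inside 2-fold, given here as log2 ratios. At day 7 against intact nerve they were Col2a1 (-0.99), Col15a1 (-0.52), Col6a5 (-0.94), Col5a1 (0.95), Col5a2 (0.91), Col27a1 (0.85) and Col8a1 (0.79). At day 21 against intact nerve they were Col12a1 (0.90), Col11a1 (-0.90) and Col23a1 (0.46), and against day 7 Col4a1 (0.96) and Col12a1 (-0.85). Other calls, such as Col9a2 (-2.43) and Col12a1 (2.56) at day 7 against intact nerve, stayed past 2-fold. Some of the calls that fell inside moved little, such as Col6a5 at day 7 against intact nerve, from -1.05 to -0.94. Others moved further, such as Col2a1 in the same comparison, from -2.78 to -0.99. Intact nerve held only 16 MES_DIFF, 7 dividing and 1 MES_EPI-diff cells, and their part in the mixture was not tested. In perineurial cells at day 7 the median of all features was -0.03 under median-of-ratios scaling and -0.31 with 3 counts added, against -0.16, and at day 21 it was -0.25 with 3 counts added, against -0.08. The median of the chains at day 21 against intact nerve was 0.75 without the perineurial class, an alternative added after seeing the data. The share of all features past 2-fold was not computed under the alternatives, so the counts that follow cannot be read against it. With no filter on low levels, the chains more than 2-fold higher and lower over all cells numbered 19 and 10 at day 7 against intact nerve, 9 and 9 at day 21 against intact nerve, and 7 and 10 at day 21 against day 7. Without that filter endoneurial cells had 10 higher and 13 lower at day 7 and 8 higher and 12 lower at day 21, epineurial cells 6 lower at day 7 and 3 at day 21, and perineurial cells 13 lower at day 21, because chains with few UMIs then entered. Where the whole counting interval had to pass 2-fold, endoneurial cells had 2 higher at day 7, and 2 higher and 2 lower at day 21. Against intact nerve, endoneurial cells at day 21 had 3 lower when each cell was weighted alike and 2 after thinning, and epineurial cells had 1 lower after thinning; the cause was not tested. Perineurial cells with UMIs of at least 3 perineurial markers had 3 lower at day 7. As the median over cells, the collagen share in intact nerve, at day 7 and at day 21 was 2.07%, 1.72% and 3.35% in endoneurial, 1.40%, 5.22% and 4.05% in epineurial and 0.471%, 1.21% and 1.20% in perineurial cells. At day 21 and day 7 it was 3.42% and 3.15% in MES_DIFF, 4.94% and 5.13% in MES_EPI-diff and 1.27% and 1.41% in dividing cells. With mitochondrial UMIs out of the total it was 2.87%, 1.90% and 3.91% in endoneurial, 2.11%, 5.73% and 4.89% in epineurial and 0.611%, 1.44% and 1.42% in perineurial cells, 3.85% at day 21 and 3.59% at day 7 in MES_DIFF, 5.48% at day 7 in MES_EPI-diff, and 1.87% at day 21 and 2.16% at day 7 in dividing cells.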
